A study of Homo sapiens with 10 samples.

Results

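The 9 genes PMEPA1, SMAD7, ADAM19, ITGA2, LMCD1, TGFBI, ID1, ID2 and ID3 are known transcriptional targets of transforming growth factor beta (TGF-beta) or of bone morphogenetic proteins (BMPs). They were measured in NCI-H441, an established human lung adenocarcinoma cell line. All probes that the platform annotation assigns to these symbols were taken, which gave 15 probes; the genes are 9 of the 17752 tested. The genes were picked because of how the arrays titled replicate 5 differed from the arrays titled replicates 1 to 4, so the values of that difference are given as a description and carry no test.

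The study compared 5 arrays of cells given CLEFMA, a small molecule tied by the series title to oxidative stress and necrotic death, at 1 µM in DMSO with 5 arrays of control cells given DMSO alone. DMSO was at 0.1% in both groups, and exposure lasted 12 h. One label field calls the controls untreated, while the treatment protocol gives them the vehicle. The labels name 5 replicates per group in the design text, 4 wells per group in the treatment protocol and 3 biological replicates in the extraction protocol, and none says that an array is a separate culture, so the spread behind each p-value is that between arrays and may be technical. All arrays come from 1 cell line at 1 dose and 1 time. In bulk RNA of this kind, fewer cells of a type and less RNA per cell cannot be told apart.

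Ligands of the TGF-beta family bring together type I and type II receptor kinases, which phosphorylate SMAD proteins that then enter the nucleus with SMAD4. The TGF-beta and activin branch uses SMAD2 and SMAD3, and the BMP branch uses SMAD1, SMAD5 and SMAD9. Both branches switch on their own inhibitors: SMAD7 blocks the receptors, and PMEPA1 is a membrane protein that keeps SMAD2 and SMAD3 from them. In epithelial cells TGF-beta is known for raising integrins and matrix genes and for repressing ID1, ID2 and ID3, the inhibitors of basic helix-loop-helix factors that BMPs induce.

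Levels are log2(value + 3) of the deposited table after quantile normalization, a scale that understates the change of dim genes. A probe was counted as above background where its deposited log10 value exceeded 0.2. Between 49.1% and 53.7% of probes were above background on each array. Control 3 stood apart, with 656 genes more than 1 log2 unit from the mean of its group's other arrays, against 89 on control 5, 152 on treated 5 and 6 to 39 on the others. Its mean correlation with the other arrays was 0.978, against 0.986 to 0.990 elsewhere. For several genes that it bears on, values are also given without it.

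Of the 9 genes, 5 read lower on array 5 than on every array 1 to 4 in both groups (PMEPA1, SMAD7, ADAM19, ITGA2 and LMCD1) and 2 read higher (ID1 and ID3). Over all genes tested, 6.07% were lower and 8.40% higher in the same sense; since the genes were picked on this difference, nothing is read from that. The other 2, TGFBI and ID2, did not differ this way, so the working description of these genes as differing by replicate holds for 7 of the 9. Every one of the 9 was above background on all 10 arrays by the probe used here, which is the gene's brightest.

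PMEPA1, the feedback inhibitor of SMAD2 and SMAD3, was at 8.99, 9.07, 8.53 and 9.12 on controls 1 to 4 and at 7.30 on control 5. On treated 1 to 4 it was at 8.89, 9.06, 8.92 and 8.89, and on treated 5 at 6.85. Both arrays numbered 5 therefore lay more than 1 log2 unit below every other array. The difference from the mean of arrays 1 to 4 was −1.63 in the controls (mean 8.93 ± 0.27, SD, n = 4) and −2.09 in the treated group (mean 8.94 ± 0.08), which is 3.09-fold and 4.25-fold lower.

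ITGA2, the alpha 2 integrin chain that binds collagen, was at 8.63, 8.80, 8.89 and 8.95 on controls 1 to 4 against 7.09 on control 5. The treated arrays read 8.66, 8.82, 8.69 and 8.33 for numbers 1 to 4 and 6.64 for number 5. Neither group's array 5 overlapped its arrays 1 to 4, and it was 3.30-fold lower in the controls and 3.96-fold lower in the treated group.

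LMCD1, a LIM domain protein that acts as a transcriptional cofactor, had closely spaced arrays 1 to 4. Its levels were 6.94, 7.09, 6.84 and 7.0 on controls 1 to 4 and 5.44 on control 5, and 6.87, 6.84, 6.93 and 7.03 on treated 1 to 4 and 5.46 on treated 5. The 2 arrays numbered 5 were nearly level with each other, at 2.89-fold and 2.75-fold below the mean of their groups' other arrays.

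ADAM19, a membrane metalloprotease, was at 5.15, 5.35, 4.03 and 5.41 on controls 1 to 4 and at 3.44 on control 5. Its treated levels were 5.10, 5.05, 5.11 and 5.16 on numbers 1 to 4 and 3.74 on number 5. Control 3 was also low for this gene, though not as low as either array 5; without control 3 the control difference was −1.87, against −1.55 with it. SMAD7, the inhibitory SMAD, differed least of the 5, with 4.95, 4.98, 5.52 and 4.93 on controls 1 to 4 against 4.13 on control 5. On the treated arrays it was at 5.0, 4.61, 4.91 and 4.59 for numbers 1 to 4 and at 3.96 for number 5. Here control 3 was the highest array, and without it the control difference of −0.97 became −0.83.

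ID1 and ID3 ran the other way. ID1 was at 7.05, 7.23, 6.52 and 7.18 on controls 1 to 4 and at 8.88 on control 5; the treated arrays read 7.19, 7.55, 7.37 and 7.39, and 9.07 on number 5. It was thus 3.70-fold and 3.24-fold higher on array 5. ID3 was at 4.55, 4.34, 3.87 and 4.39 on controls 1 to 4 and at 6.32 on control 5, and at 4.52, 4.84, 4.63 and 4.64 on treated 1 to 4 and 6.07 on treated 5, which is 4.10-fold and 2.66-fold higher. Among all 17752 genes ordered by the mean of the 2 differences, ID1 was 3rd and ID3 4th from the top, while PMEPA1 was 6th, ITGA2 7th, LMCD1 10th, ADAM19 11th and SMAD7 64th from the bottom.

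ID2, the remaining inhibitor of the ID family here, was dim, at 2.82, 2.55, 3.29 and 3.06 on controls 1 to 4 and 3.26 on control 5. The treated levels were 2.84, 2.86, 3.51 and 3.05 on numbers 1 to 4 and 3.47 on number 5. Both arrays numbered 5 lay within the range of the others, and the differences of 0.33 and 0.41 were close to the SD of arrays 1 to 4 (0.32 and 0.31, n = 4). TGFBI, a secreted matrix protein named for its induction by TGF-beta, was bright and flat: 11.92, 12.07, 11.80 and 11.81 on controls 1 to 4, 11.92 on control 5, 12.03, 11.92, 11.95 and 12.0 on treated 1 to 4, and 11.91 on treated 5. Its differences were 0.02 and −0.06. Treated 5 lay marginally below the other treated arrays and control 5 lay within its group.

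**Figure D1:**
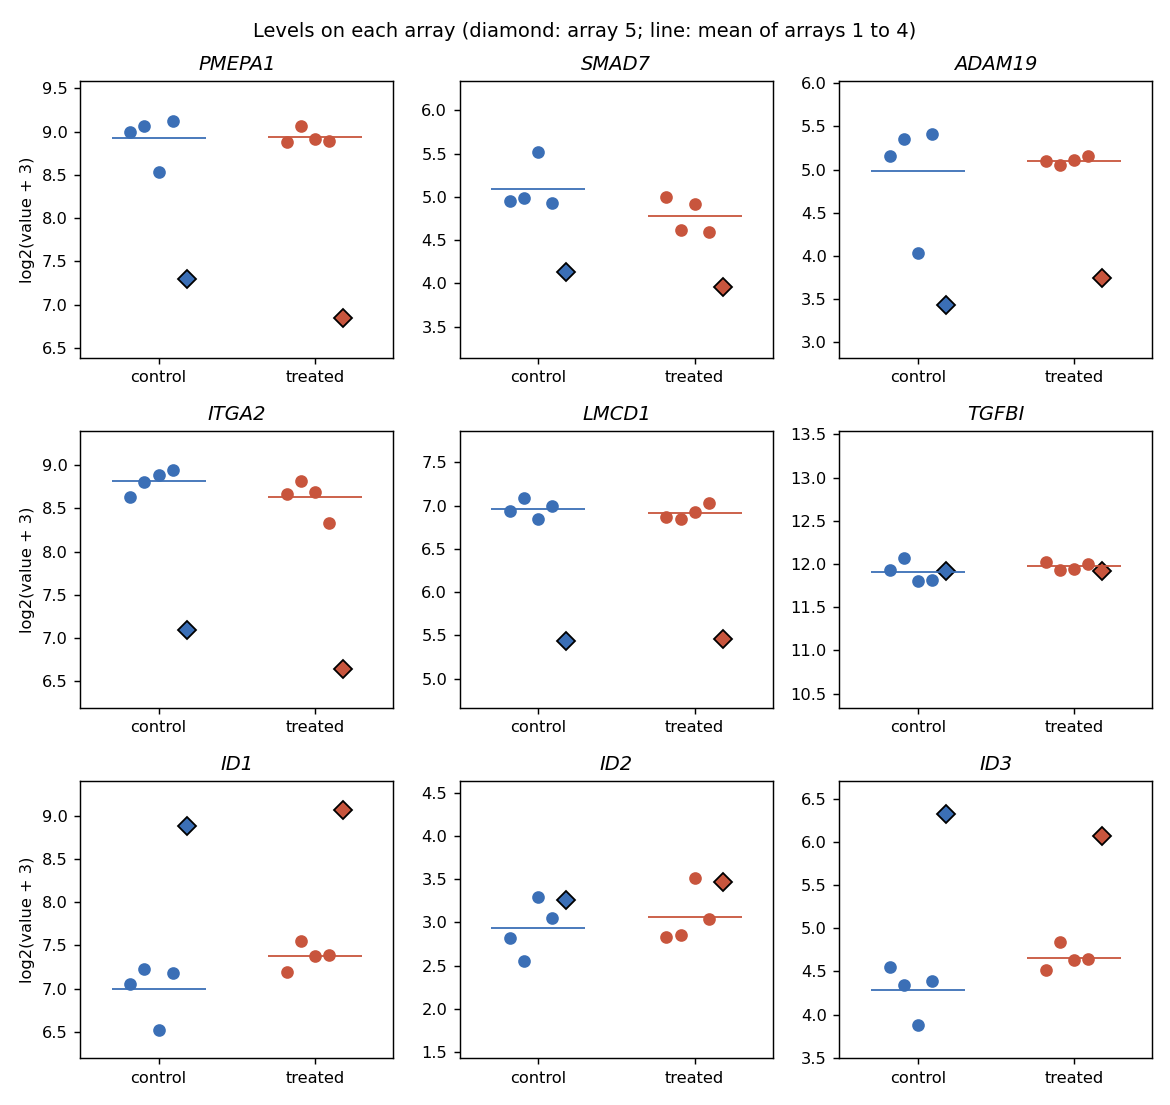
Level, log2(value + 3), of each of the 9 genes on every array, control in blue and treated in red; circles are arrays 1 to 4, diamonds array 5, and the line is the mean of arrays 1 to 4. PMEPA1, SMAD7, ADAM19, ITGA2 and LMCD1 sit low and ID1 and ID3 sit high on array 5 of both groups, while TGFBI and ID2 do not.

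**Figure D2:**
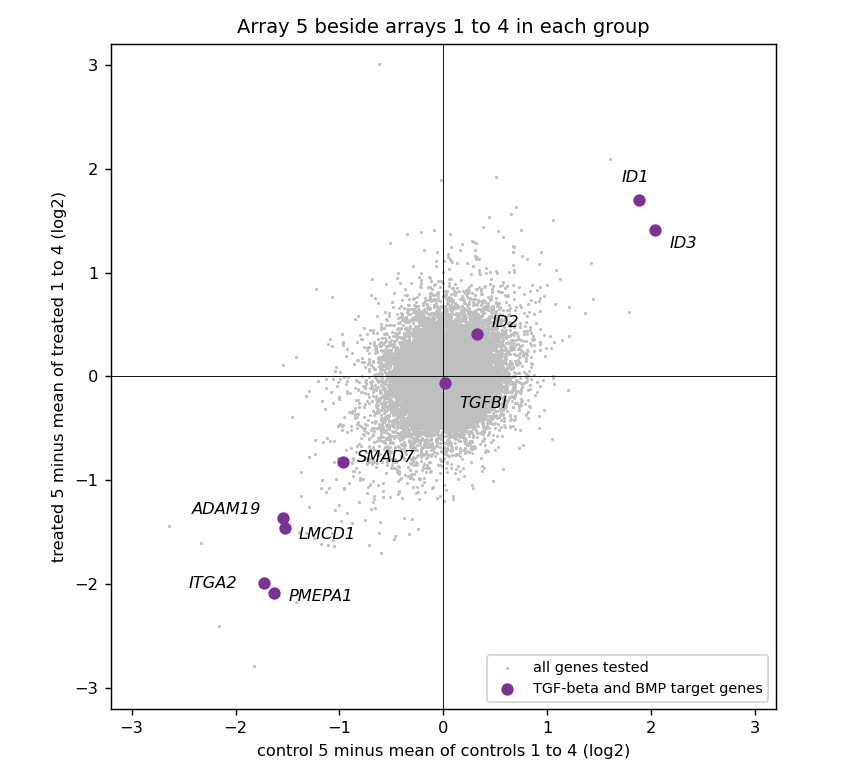
Difference of array 5 from the mean of arrays 1 to 4 (log2) in the controls (horizontal) and in the treated group (vertical) for all 17752 genes in grey and the 9 genes in purple. ID1 and ID3 lie at the upper right edge, PMEPA1, ITGA2, LMCD1 and ADAM19 at the lower left edge, and TGFBI and ID2 in the main cloud.

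Several genes had more than 1 probe, and these did not all read the same. For PMEPA1, the 2 probes designed on transcript NM_199169 differed by −1.63 and −1.79 on control 5 and by −2.09 and −1.91 on treated 5. A dimmer probe on NM_020182 differed by −1.15 and −0.85, and the dimmest, on NM_199171 and above background on 9 arrays, by 0.03 and 0.08, within the range of its arrays 1 to 4. Both SMAD7 probes were below arrays 1 to 4 in both groups; the second differed by −0.64 and −0.28. The second ID1 probe, dimmer and above background on 9 arrays, differed by 2.30 and 2.82, more than the first. Its levels were 2.63, 2.72, 2.81 and 3.11 on controls 1 to 4 and 5.11 on control 5, and 2.97, 2.14, 2.96 and 3.09 on treated 1 to 4 and 5.62 on treated 5. The second ID2 probe, above background on 6 arrays, stayed within its range in both groups. Of the 15 probes, 8 were lower and 3 higher on both arrays numbered 5. Probes of a gene are not independent and the genes were picked for this difference, so the count is a description. The share over all probes was not counted.

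**Figure D3:**
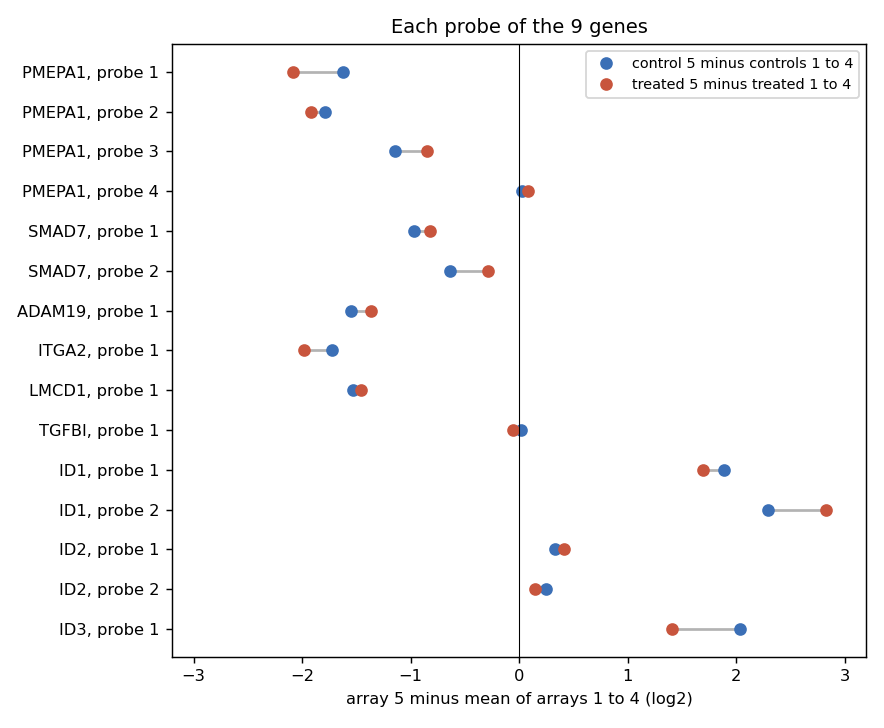
Difference of array 5 from the mean of arrays 1 to 4 (log2) for each of the 15 probes, in the controls (blue) and the treated group (red), with probes of a gene ordered from bright to dim. Beyond their arrays 1 to 4 in both groups, 8 probes lie below 0 and 3 above, and the dimmest PMEPA1 probe lies at 0.03 and 0.08.

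Promoter sequence is shown for 3 of the 5 genes that were lower together (the feedback inhibitors PMEPA1 and SMAD7, and the receptor chain ITGA2), for ID1 and ID3, which were higher, and for ID2, the ID gene that stayed within range. The windows are RefSeq's, on GRCh38.p14, from 250 bases before to 50 bases after an annotated start, written 5′ to 3′ in the direction of the gene. Capitals mark matches on either strand to the SMAD box (GTCTG or CAGAC) and to the GC-rich SMAD1 and SMAD5 motifs (GGCGCC, and GGAGCC or GGCTCC). PMEPA1 has 4 windows and SMAD7 has 3, and the window with the most SMAD boxes is shown for each.
PMEPA1 (chr20:57709966-57710265, minus strand): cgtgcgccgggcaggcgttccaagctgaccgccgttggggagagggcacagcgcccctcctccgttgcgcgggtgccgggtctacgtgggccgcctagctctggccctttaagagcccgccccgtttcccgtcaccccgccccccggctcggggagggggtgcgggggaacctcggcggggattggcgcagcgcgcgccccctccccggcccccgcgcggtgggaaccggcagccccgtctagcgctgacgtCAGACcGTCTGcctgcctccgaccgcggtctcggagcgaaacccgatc
SMAD7 (chr18:48950916-48951215, minus strand): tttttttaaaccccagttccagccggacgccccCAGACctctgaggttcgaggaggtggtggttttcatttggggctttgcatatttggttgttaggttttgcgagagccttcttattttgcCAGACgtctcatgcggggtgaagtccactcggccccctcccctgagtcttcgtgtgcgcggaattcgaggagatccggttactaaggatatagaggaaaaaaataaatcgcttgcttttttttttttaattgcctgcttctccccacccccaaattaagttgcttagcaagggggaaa
ITGA2 (chr5:52989102-52989401, plus strand): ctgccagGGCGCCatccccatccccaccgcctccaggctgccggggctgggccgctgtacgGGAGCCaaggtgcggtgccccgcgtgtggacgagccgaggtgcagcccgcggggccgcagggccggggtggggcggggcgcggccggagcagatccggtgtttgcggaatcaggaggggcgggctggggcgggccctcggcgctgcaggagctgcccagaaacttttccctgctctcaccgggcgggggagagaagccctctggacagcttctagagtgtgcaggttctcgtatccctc
ID1 (chr20:31605039-31605338, plus strand): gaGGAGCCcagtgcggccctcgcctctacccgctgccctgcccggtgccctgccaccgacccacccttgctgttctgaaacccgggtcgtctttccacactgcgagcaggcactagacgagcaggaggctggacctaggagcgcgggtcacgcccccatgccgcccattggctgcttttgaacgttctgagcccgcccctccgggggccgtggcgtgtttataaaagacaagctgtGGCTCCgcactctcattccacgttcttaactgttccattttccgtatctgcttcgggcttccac
ID3 (chr1:23559452-23559751, minus strand): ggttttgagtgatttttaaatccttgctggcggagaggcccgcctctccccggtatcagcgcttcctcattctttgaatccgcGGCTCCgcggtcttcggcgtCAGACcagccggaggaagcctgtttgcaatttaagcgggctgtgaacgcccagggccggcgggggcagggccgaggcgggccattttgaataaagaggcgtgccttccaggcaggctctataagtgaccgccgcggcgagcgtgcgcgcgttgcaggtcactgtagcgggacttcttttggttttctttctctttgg
ID2 (chr2:8681806-8682105, plus strand): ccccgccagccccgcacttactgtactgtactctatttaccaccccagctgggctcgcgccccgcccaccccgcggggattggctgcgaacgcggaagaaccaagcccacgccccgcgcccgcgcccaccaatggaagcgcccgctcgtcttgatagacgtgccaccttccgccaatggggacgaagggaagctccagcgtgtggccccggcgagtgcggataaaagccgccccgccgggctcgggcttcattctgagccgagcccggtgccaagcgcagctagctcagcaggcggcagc

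In PMEPA1 the pair of SMAD boxes shown starts 3 and 9 bases after the start site, facing each other across 1 base. In the SMAD7 window the boxes start 217 and 128 bases before it. ID1 holds the GGAGCC motif 248 and 14 bases before the start and no SMAD box, and ID3 holds 1 of each. The ADAM19 window, not shown, holds 1 SMAD box and 2 GGAGCC motifs. No motif searched was found in the windows of LMCD1 and ID2. Across the 14 windows of the 9 genes, a SMAD box was found in 7 (45.3% of all 35116 promoter windows hold one), GGAGCC or GGCTCC in 8 (36.0% of all) and GGCGCC in 3 (19.2% of all). The palindrome GTCTAGAC and the AP-1 site TGANTCA were found in 0 of the 14, and in 0.202% and 7.71% of all windows. These matches describe letters in these windows, which can fall where no factor binds, and motifs outside them were not searched.

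The comparison the study was designed for, treated against control cells, gave no call among the 9 genes. In limma 0 of 9 passed an adjusted p of 0.05, and 0 of 9 had an unadjusted p under 0.05; over all genes 0.299% passed. With replicate number as a block, ID1 and SMAD7 had an unadjusted p under 0.05 (limma, 0.0233 and 0.0350), and neither passed. The block takes out the array 5 shift shared by both groups, for which these genes were picked. Over all genes 8.96% had an unadjusted p under 0.05 in limma without the block. The share with the block was not counted. The groups overlapped for all 9, against 2.50% of all genes tested whose groups stood clear of each other. For genes picked because array 5 stood apart in both groups, overlap was close to fixed by that choice. Nothing about the treatment is read from it. Largest in size was ID1, whose treated mean of 7.72 ± 0.77 stood against a control mean of 7.37 ± 0.89 (SD, n = 5 per group), a log2 difference of 0.34 ± 0.43 (SE; limma adjusted p = 0.810). SMAD7 followed at −0.29 ± 0.25 (limma adjusted p = 0.720), then ID3 at 0.25 ± 0.42 and ITGA2 at −0.24 ± 0.44. Differences of the remaining genes were between −0.08 for PMEPA1 and 0.16 for ADAM19. This order rests on single arrays. Without control 3, ID2 was largest at 0.22, and ID1 was at 0.13, SMAD7 at −0.13, ID3 at 0.04, ITGA2 at −0.14 and ADAM19 at −0.01; leaving out any 1 array put ID1 anywhere from 0.0034 to 0.72. With array 5 in both groups, the 95% intervals were wide: that of PMEPA1 ran from −1.06 to 0.89 and that of ID1 from −0.60 to 1.29 on the log2 scale. TGFBI had the narrowest, from −0.12 to 0.23.

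Over the arrays numbered 1 to 4 alone, the SE was smaller for 7 of the 9 genes and slightly larger for TGFBI and ID2. These 7 are the genes for which array 5 stood apart, so a smaller SE without it follows from how they were picked. The p-values of this fit share that limit. For this fit, the share of all genes with an unadjusted p under 0.05 was not counted. The difference of PMEPA1 was 0.01 ± 0.13 (95% interval −0.29 to 0.32), that of LMCD1 −0.05 ± 0.08 and that of ITGA2 −0.19 ± 0.12. ID1 differed by 0.38 ± 0.16 and ID3 by 0.37 ± 0.15, both with an unadjusted p under 0.05 (0.0441 and 0.0343) and neither passing over all genes (limma adjusted p = 0.496 and 0.477); 0.237% of all genes passed in this fit. Without control 3 as well, these became 0.22 for ID1 (unadjusted p = 0.0511 in limma) and 0.23 for ID3 (unadjusted p = 0.0411 in limma), PMEPA1 was at −0.12 and ADAM19 at −0.20. Between the 2 arrays numbered 5, ID1 differed by 0.19, ID3 by −0.25, PMEPA1 by −0.45 and ITGA2 by −0.45, with no replicate behind these values. Whether the treatment effect itself differs between array 5 and the others was not tested.

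**Figure D4:**
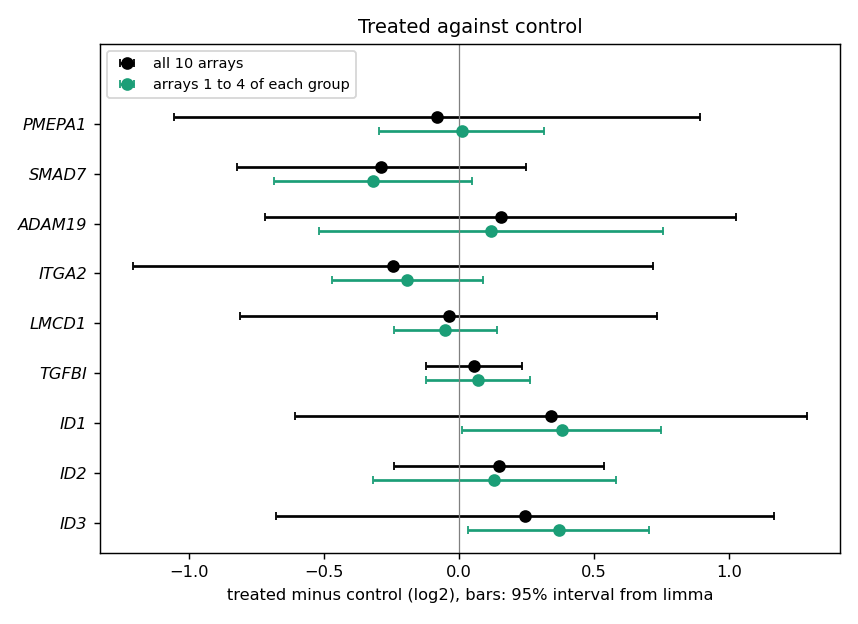
Treated minus control difference (log2) of the 9 genes with 95% intervals from limma, over all 10 arrays (black) and over arrays 1 to 4 of each group (green). Intervals of the 7 genes for which array 5 stood apart narrow without it, which follows from how they were picked. Those of ID1 and ID3 then lie just above 0, before adjustment over all genes.

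The other genes of both branches were read from 5 lists by role. None of 112 list genes passed between treated and control cells in limma (3 higher and 4 lower had an unadjusted p under 0.05, which is 6.25% against 8.96% of all genes). List medians of the treated minus control difference were between −0.05 and 0.04, against 0.01 over all genes. COL4A1, a basement membrane collagen, had the largest difference, from 2.55 to 3.26 (0.71 ± 0.17, limma adjusted p = 0.183). It was dim, above background on 9 arrays, and without control 3 its difference was 0.60. BMPR2, the type II BMP receptor, differed by −0.65 ± 0.28 (limma adjusted p = 0.526), and SKIL, a SMAD corepressor that TGF-beta induces, by −0.53 ± 0.21 (limma adjusted p = 0.505). Without control 3 the differences were −0.52 for BMPR2 and −0.36 for SKIL. The other 4 were ITGA5, a chain of the fibronectin receptor (0.41, or 0.24 without control 3), the homeobox gene DLX3 (0.29), LTBP3, which binds latent TGF-beta (−0.33, or −0.22 without control 3), and TWSG1, a secreted modulator of BMPs (−0.23). By p within their own lists, the activin receptor ACVR2B (−0.40, or −0.24 without control 3) came after SKIL, and BMP5 (−0.23) after TWSG1. Over all lists, other genes not named here had a smaller p than either.

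Beside the 9 genes, 11 of 27 other TGF-beta targets (40.7%) were lower and 0 were higher on array 5 than on arrays 1 to 4 in both groups, where 6.07% of all genes were lower. Among genes above background on all arrays, 11 of 21 on this list were lower, against 931 of all 11182. The list's median difference was −0.25 in the controls and −0.26 in the treated group, against 0.00 and 0.00 over all genes. VIM, the intermediate filament protein vimentin, was at 5.85, 5.96, 6.23 and 6.05 on controls 1 to 4 and 4.70 on control 5, and at 5.76, 5.87, 5.70 and 5.95 on treated 1 to 4 and 4.31 on treated 5. LAMB3, a laminin chain of epithelial basement membranes, differed by −1.29 and −1.26. CDKN2B, a cell cycle inhibitor that TGF-beta induces, differed by −0.81 and −0.92. SNAI2, a repressor of epithelial genes, differed by −1.01 (−0.85 without control 3) and −0.47. JUNB differed by −0.51 (−0.34 without control 3) and −0.88. The others were COL1A1, PDGFB, KLF10, NEDD9, SPHK1 and HMGA2. CCN2, a matricellular protein often used as a TGF-beta readout, did not go with them, at 0.21 and −0.13. These counts use the same arrays numbered 5, 1 per group, on which the 9 genes were picked. All 5 lists were chosen with earlier results of these data known, so the counts are a description and carry no test.

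Of 23 receptors, SMADs and regulators of the TGF-beta branch, 6 were lower on both arrays numbered 5 (26.1%) and 1 was higher (4.35%). Over all genes the shares were 6.07% and 8.40%. SMAD3, the signal-carrying SMAD, was at 7.79 to 8.03 on controls 1 to 4 and 7.32 on control 5, and at 7.86 to 8.0 on treated 1 to 4 and 7.35 on treated 5. SKIL differed by −0.76 (−0.58 without control 3) and −0.50, and ENG, SMURF2, SKI and PPM1A were also lower. TGFBR2, the type II receptor, was the 1 gene that was higher, by 0.44 and 0.28. Among 20 ligands and activators, 2 were lower (10%) and 1 was higher (5%), against 6.07% and 8.40% of all genes. INHBB, the beta B subunit of activin and inhibin, was higher by 1.42 and 1.09. ITGAV and ITGB6, which pair as the integrin that activates latent TGF-beta, were lower by values of −1.46 and −0.40 and of −0.87 and −0.79. Both control values lean on control 3, which lay more than 1 log2 unit above controls 1, 2 and 4 for each gene; without it they were −1.16 for ITGAV and −0.58 for ITGB6. THBS1, on the same list, differed by −1.54 in the controls and by 0.11 in the treated group. TGFB1 was above background on 1 array.

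Counts on both BMP lists were small, and are read beside the 8.40% of all genes that were higher and the 6.07% that were lower. Of 21 BMP ligands and antagonists, BMP4 (0.22 and 0.51) and BMP7, above background on 4 arrays, were higher and FSTL3, a binder of activin, was lower (−0.98 and −0.78). BMP8B differed by −0.59 and −0.30, with treated 5 within the range of its group. Of 21 BMP receptors, SMADs and targets, BMPR2 (−0.96 and −1.08), the type I receptor ACVR1 (−0.29, or −0.17 without control 3, and −0.30) and HEY1 (−0.51 and −0.72) were lower and TBX3 was higher. SMAD6 and ID4, which BMPs also induce, were above background on 0 arrays and have no usable level. Whether these lists differ from each other was not tested.

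**Figure D5:**
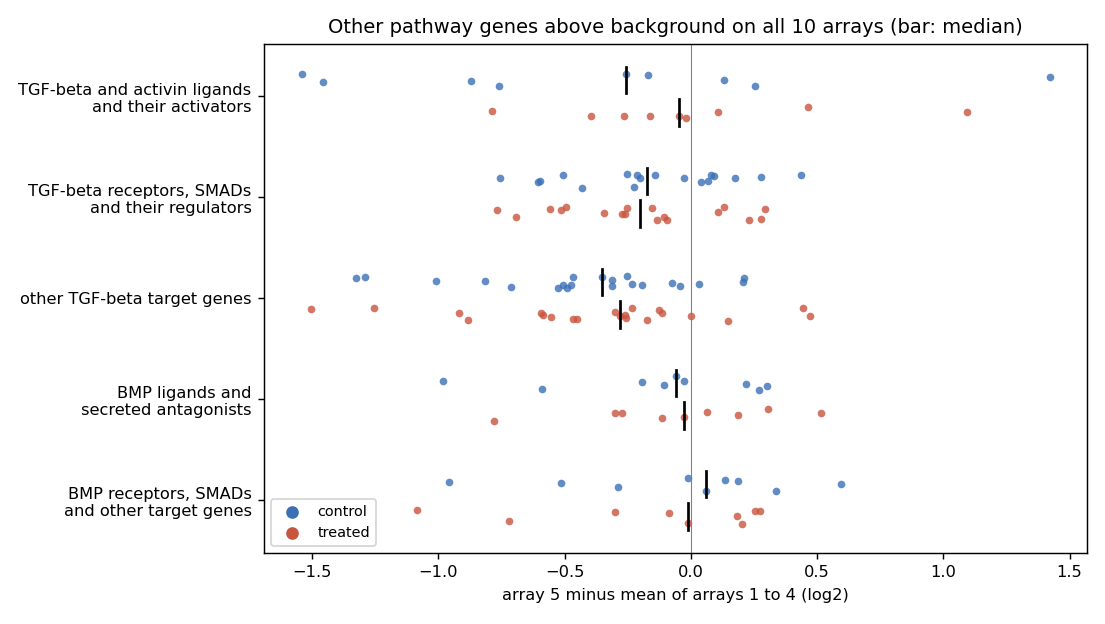
Difference of array 5 from the mean of arrays 1 to 4 (log2) for genes of the 5 pathway lists above background on all 10 arrays, controls in blue and treated in red, with black bars at list medians. In the list of other TGF-beta targets most points lie below 0, with VIM and LAMB3 lowest.

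The genes whose pattern was most like that of PMEPA1 were found by Pearson correlation over the 10 arrays after each group's mean was taken off, among 11173 genes above background on all arrays. They were LFNG (r = 0.997), a glycosyltransferase of Notch receptors, G0S2 (0.994), an inhibitor of a triglyceride lipase, GNLY (0.988), known as granulysin of cytotoxic lymphocytes, FRMD6 (0.986) and ACO1 (0.983). On array 5, G0S2 differed by −1.82 in the controls and −2.79 in the treated group, and GNLY by −2.16 and −2.40; NKG7, another gene of cytotoxic lymphocytes, was above background on 1 array. Most like ID1 were SLC35D2 (r = 0.982), JPH1, TNPO2, LYNX1 and MALL (0.962). These correlations are set mainly by the 2 arrays numbered 5. Control 3 also bears on them, as the lowest of controls 1 to 4 for PMEPA1, ID1 and these 10 genes, only just so for MALL. Correlations without control 3 were not taken. All of them share the 10 arrays, so they describe a shared pattern and carry no p. None of these 10 genes passed between treated and control cells in limma (adjusted p of 0.666 or more).

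Other properties of the arrays numbered 5 are given beside these differences. Control 5 had 50.6% and treated 5 had 52.5% of probes above background, within the range of the others, and mean correlations of 0.989 and 0.986. Of 12 lung epithelial markers tested, 10 were above background on all arrays and SFTPC on none; their mean level was 7.75 on control 5 against 7.81 to 7.90 on controls 1 to 4, and 7.68 on treated 5 against 7.71 to 7.76. Within that list SFTPA1 (1.21 and 0.67), NKX2-1 (0.64 and 0.49) and NAPSA (0.20 and 0.25) were higher and SCGB1A1 (−0.74 and −0.83) and KRT7 (−0.62 and −0.74) lower on array 5 of both groups, while SFTPB was lower in the controls (−0.97) and higher in the treated group (0.32). Of 8 fibroblast markers 4 were above background on all arrays and COL3A1 and POSTN on none; the mean was 3.25 on control 5 against 3.27 to 3.38, and 3.33 on treated 5 against 3.22 to 3.33. Of 11 leukocyte markers 4 were above background on all arrays and ITGAM, TYROBP and FCER1G on none, with means of 2.91 on control 5 (others 2.77 to 2.98) and 2.93 on treated 5 (others 2.88 to 3.01). Of 5 endothelial markers CDH5 was above background on 0 arrays, and the means were 3.40 (others 3.04 to 3.43) and 3.14 (others 3.18 to 3.31). The labels give no culture, slide or day for any array, and the part of these in the array 5 differences was not tested.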

How the data were processed

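Total RNA of 10 samples was measured on Illumina HumanWG-6 v3.0 bead arrays, per the labels' protocols. The value table deposited by the authors holds log10 values for 48803 probes. Base and background subtraction were inferred from the values (the highest, 3.79, is 6110 linear units in base 10 and 13.8 in base 2), so fold changes rest on that base; software and normalization: not given in the sources used here. A second deposited table has 10 columns that match no sample and was not used. Linear values plus an offset of 3 were taken to log2 and quantile normalized. The filter kept 44606 probes with a mean above the 25th percentile (1.59). Each gene took its brightest probe (17752 genes), with symbols updated through Entrez identifiers.

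Groups and replicate numbers came from sample titles. Limma 3.58.1 in R 4.3.3 compared groups (lmFit and eBayes, two-sided, no covariate), with Benjamini-Hochberg adjustment over all genes, a method checked on simulated data. Genes named were the 9 members with all probes, 10 pathway genes whatever their result (1 is not reported here), and of each of 5 lists any that passed, the 2 with the smallest p and the 2 with the largest array 5 difference among those above background on all arrays; other list genes, with array 5 outside the rest, were named after their values were seen. The members, lists and tests were chosen with earlier results of these data known. After each group's mean was taken off, same-numbered arrays correlated by -0.10, 0.30, 0.12, -0.05 and 0.32 for numbers 1 to 5 (11182 genes). For numbers 2 and 5 each array correlated best with its own number. The labels name no pairing and the correlations were uneven, so the numbers were not taken as pairs. The SE of ID1 was 0.43 without pairing and 0.12 with replicate number as a block. ID1 was picked for an array 5 shift shared by both groups, which a block takes out, so the smaller SE follows from that choice. Alternatives covered the offset, normalization, filter, probe rule, variance model, array weights, replicate block and arrays left out. Figures were drawn with matplotlib 3.10.9. Precision is limited by the count of arrays, 5 per group.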

Additional observations from a re-analysis of the deposited data

Results flagged for a closer look

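An array's value was marked where its gap to the nearest of the other arrays of its group, divided by the group's range, was above 0.71, which is Dixon's 95% limit in a group of 5. Among 76 sets tried 25 were marked, and in 20 the array was one numbered 5. Chance flags about 1 in 20 groups, but 14 of the 25 are probes of the 9 genes, which were picked for this difference. The pathway genes marked on an array numbered 5 also met the rule for the largest array 5 differences of their lists. That rate therefore does not apply to them, and the count is a description.

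Among probes of the 9 genes the marked log2 levels on treated 5 were 6.85 for PMEPA1, 5.74 for its second probe, 3.74 for ADAM19, 6.64 for ITGA2 and 5.46 for LMCD1, all low, and 9.07 for ID1, 5.62 for its second probe and 6.07 for ID3, all high. On control 5 they were 6.01 for the second PMEPA1 probe, 7.09 for ITGA2 and 5.44 for LMCD1, low, and 5.11 for the second ID1 probe and 6.32 for ID3, high. The dimmest PMEPA1 probe was marked low on control 1, at 1.82.

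Among the other pathway genes, INHBB was high at 6.95 on control 5 and 7.25 on treated 5, and VIM was low at 4.70 and 4.31. SMAD3 at 7.35, LAMB3 at 7.48 and HEY1 at 5.16 were low on treated 5. TWSG1 was high on control 3 at 8.95. SMAD6 on control 2 (1.89) and treated 2 (2.10) and ID4 on control 2 (1.75) were marked too, but these genes were above background on 0 arrays.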

How the results depend on the processing

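No member and no gene of the pathway lists passed in limma under any of the 13 alternatives or with any 1 array left out, and 7 members had array 5 outside arrays 1 to 4 in both groups under the 6 alternatives and 8 omissions tried. The 53 genes called over the whole table became 28 on the deposited values, 87 with array weights and 28 to 49 with 1 array left out; the counts were 31, 29 and 30 without controls 1, 2 and 4 and 33, 28 and 30 without treated 1, 3 and 4. Treated minus control changed sign for PMEPA1 with array weights (0.010) and without both arrays numbered 5 (0.011), for LMCD1 with array weights (0.052) and for ADAM19 without control 3 and both arrays numbered 5 (-0.20). With 1 array left out, PMEPA1 ran from -0.41 to 0.34, LMCD1 from -0.34 to 0.26, ADAM19 from -0.15 to 0.43, ITGA2 from -0.59 to 0.15 and ID3 from -0.037 to 0.65, all changing sign, while ID1 (0.0034 to 0.72) and SMAD7 (-0.48 to -0.12) did not, and the TGFBI difference of control 5 was -0.016 without control 3. The cause was not tested. The array 5 differences kept their direction under the 6 alternatives for the 7 genes, but sizes depend on the offset and on the probe: ADAM19 on treated 5 ran from -1.66 to -0.85 and PMEPA1 from -2.16 to -1.19, the latter as the mean over its probes. Replicate number as a block (replicate block) gave 45 calls over the whole table and 0 members, though ID1 and SMAD7 then had an unadjusted p under 0.05 in limma (0.0233 and 0.0350; adjusted p = 0.390 and 0.423); 5 of 10 arrays correlated best with their own number. The block takes out the array 5 shift for which ID1 and SMAD7 were picked. Differences of genes near background, such as ID2, are limited by signal.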
